A study of Mus musculus with 6 samples.

Results

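Macrophage polarization was read from 10 genes in single cells of mouse skin, Retnla, Retnlg, Chil3, Chil1, Arg1, Nos2, Mrc1, Folr2, Cd163 and Fn1. They were chosen by symbol, and all 10 were found among the 31053 genes of the deposited matrices. Macrophages take on different programs with the signals they meet. Interleukin-4 and interleukin-13 act through STAT6 and raise Arg1, Retnla, Chil3 and Mrc1 in mouse cells, a state called alternative, whereas interferon-gamma with bacterial products raises Nos2, a state called classical. Folr2 and Cd163 mark macrophages resident in tissues, and several of these genes are also used by monocytes and neutrophils, so each one was read in 3 kinds of myeloid cells.

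Skin came from female C57BL/6J mice of 8 to 10 weeks, and each of the 3 groups had 2 libraries. Sham mice, whose libraries are titled Normal, were untreated. IMQ mice received 62.5 mg of 5% imiquimod cream, an agonist of Toll-like receptor 7 that induces psoriasis-like inflammation, on shaved back skin once a day for 4 days and were sacrificed 1 day after the last dose. IMQ+SHP099 mice received the same cream and also SHP099 hydrochloride, which holds the phosphatase SHP2 in its closed, inactive form, at 10 mg/kg intragastrically each day for 4 days. No group received SHP099 without imiquimod. Each library was made from unsorted cells of dorsal skin pooled from several mice, fewer in Sham than in the treated groups, so p-values measure the spread between 2 pools of a group. The comparison of IMQ with Sham asked what the cream did to each gene, and that of IMQ+SHP099 with IMQ asked what the inhibitor changed on top of it.

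The libraries held 7567 to 10746 barcodes with 53913865 to 188283327 UMIs (unique molecular identifiers, 1 per captured transcript), and 7382 to 10293 cells a library, 50850 of 55201 barcodes in all, passed the limits on UMIs, genes and mitochondrial share. Cells were gated by marker genes, none of them among the 10. C1q macrophages, cells with at least 2 of the 3 C1q chains, numbered 44 and 315 in the 2 libraries of Sham, 77 and 64 in those of IMQ, and 30 and 40 in those of IMQ+SHP099. Lyz2-high monocytes, C1q-low cells with Ly6c2, Ccr2, Plac8 or Vcan, numbered 8 and 170, 350 and 380, and 17 and 245. Neutrophils, with high S100a8 and S100a9 together with Csf3r or Cxcr2, numbered 0 and 8, 132 and 295, and 10 and 85. The first libraries of Sham and IMQ+SHP099 stand apart from the rest, since keratinocytes made up 35.8% and 44.1% of their cells against 2.11% to 11.7% elsewhere, and these 2 libraries hold the fewest gated myeloid cells. Any pair of libraries shared 14 to 43 barcodes, at most 0.523% of the smaller one, and doublets were not removed.

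Marker lists bear on the labels, and the gates did not use most of their genes. Of the dendritic list, Flt3, Xcr1 and Ccr7 were limited in the monocyte gate. Krt5, Krt14, Krt1 and Krt10 were limited in every myeloid gate, and Csf1r of the macrophage list in the neutrophil gate. Sums over those lists are therefore not independent of the gates. All 8 macrophage markers were present in the macrophages of every library, at a summed 6733 to 11417 CPM (UMIs of the genes in every 1000000 UMIs of the class). The monocyte gate had different marker sums in Sham than after treatment. In Sham its 8 monocyte markers summed to 514 and 682 CPM against 2801 to 2912 in the other 4 libraries, while 7 dendritic markers summed to 741 and 827 against 18.1 to 32.8. Keratinocyte markers reached 5199 CPM in the 8 monocytes of Sham 1. Neutrophils of IMQ 1, IMQ 2 and IMQ+SHP099 2 held all 9 neutrophil markers at 8631 to 16757 CPM. The 10 neutrophils of IMQ+SHP099 1 summed to 1201, with Ly6g and Camp at 0, and the 8 of Sham 2 summed to 3652 with 5 of the 9 at 0.

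Retnla and Retnlg are neighbours on chromosome 16 of the GRCm38 build (16:48842551-48844461 and 16:48872621-48874496, both on the plus strand, 28159 bases apart). They encode related secreted proteins of the resistin family but were found in different cells here, so a stretch of each promoter is shown. Both stretches were cut at the same offset from the gene's own STAT6 match, which lines them up. They are read from RefSeq's GRCm38.p6 assembly, 5′ to 3′, on the plus strand, with capitals for matches to the motif that STAT6 binds, TTC and GAA with 4 bases of any kind between them, and to TTGCNNAA, a motif of the C/EBP family.
Retnla, chr16:48842434-48842533: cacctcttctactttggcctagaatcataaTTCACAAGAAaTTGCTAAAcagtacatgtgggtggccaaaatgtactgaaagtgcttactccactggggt
Retnlg, chr16:48872506-48872605: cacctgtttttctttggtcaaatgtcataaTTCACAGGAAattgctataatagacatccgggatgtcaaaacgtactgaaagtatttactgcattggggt
The windows were identical at 76 of 100 bases. Each holds 1 STAT6 match, as the cut required. The stretch of Retnla also holds a C/EBP match. That of Retnlg holds none, but 1 C/EBP match lies outside it, within the 250 bases before RefSeq's start of Retnlg. RefSeq's starts of both genes differ from the annotated starts printed above, so no distance from a start is given. A TATAAA match before RefSeq's start of Retnla lies past the annotated start. Searched on both strands over 250 bases before RefSeq's start, the 3 motifs were found in 5.85%, 9.56% and 12.4% of 32851 promoters. RefSeq windows were matched for 7 of the 10 genes, and Chil3, Chil1, Mrc1, Folr2 and Cd163 held none of the 3 motifs in them. A match describes the letters and is not a bound site.

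The 10 genes fell into different cells. Retnlg, Chil3 and Folr2 each had 1 main class. Neutrophils held 82.7% to 100% of a library's Retnlg UMIs in the 5 libraries that had any neutrophil, monocytes held 53.1% to 86.8% of Chil3, and C1q macrophages held 46.2% to 94.9% of Folr2. Mrc1 was spread over macrophages (34.6% to 55.7%), monocytes (4.43% to 20.6%) and other myeloid cells. Retnla was almost all in the gated classes where it was abundant, 92.8% in Sham 2 and 99.8% in IMQ 2. Fn1 was chiefly a fibroblast gene, with 52.4% to 88.8% of its UMIs there. Arg1 and Chil1 were mostly outside the 3 gated classes, which held no Arg1 UMI in any library and 0% to 14.2% of Chil1.

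**Figure D1:**
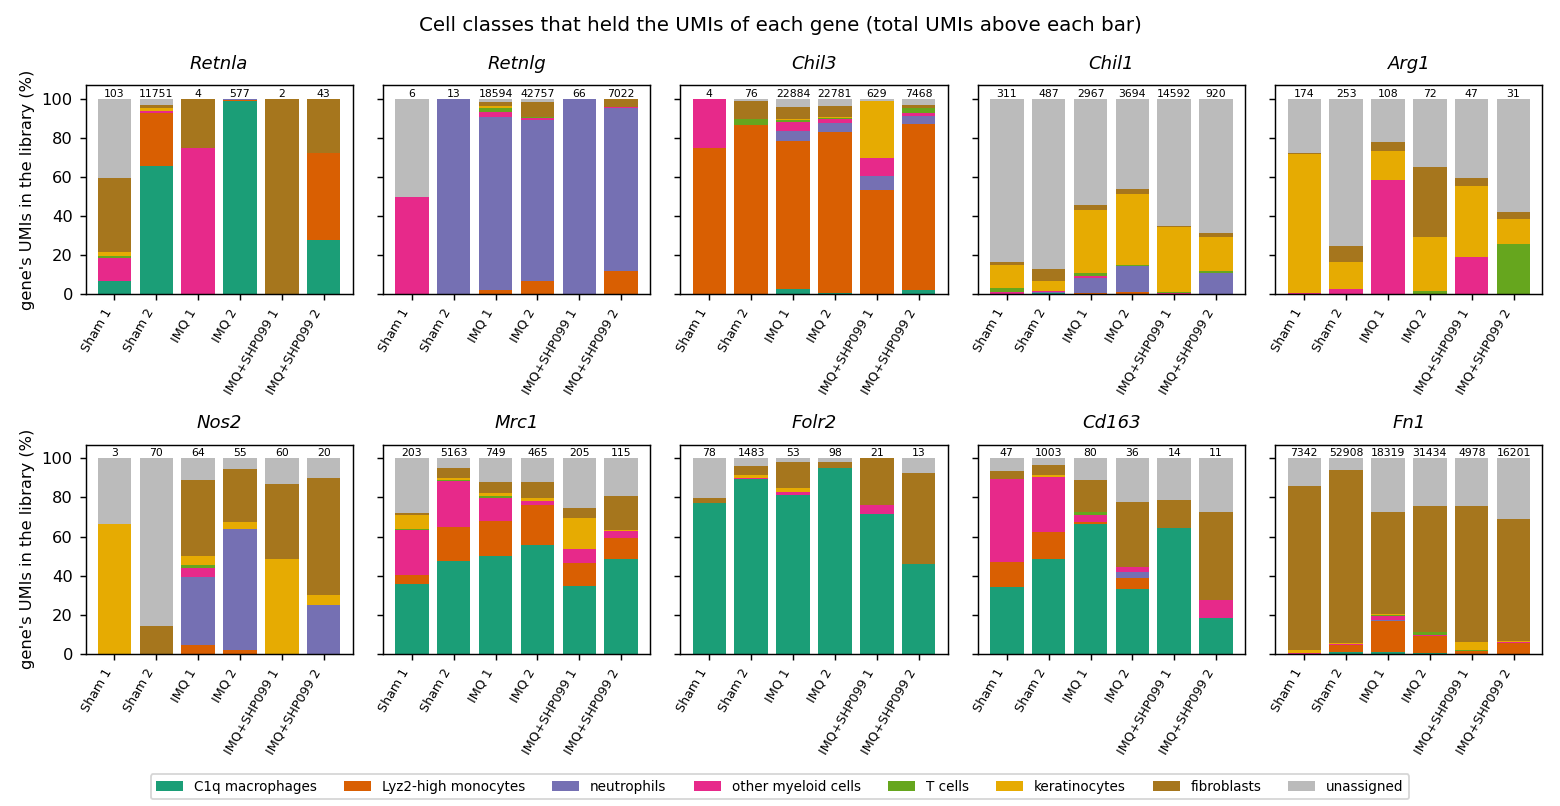
Stacked bars give, for each gene and library, the percent of the gene's UMIs that each cell class held, with the gene's total UMIs in the library above the bar. Neutrophils held 82.7% to 100% of Retnlg wherever there were neutrophils, monocytes 53.1% to 86.8% of Chil3 and macrophages 46.2% to 94.9% of Folr2, while Arg1 had no UMI in the 3 gated classes.

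Set against this map, the groups differed in 3 main ways. Chil3 was at most 46.4 CPM in the gated cells of Sham and reached 6552 and 6806 CPM in IMQ monocytes. Marker sums of that gate also differed from Sham. Folr2 and Cd163 were lower in the macrophages of all 4 treated libraries than in either Sham library, although neither passed the test over all genes. For such orders of libraries, here and below, the share of all genes with the same order was not counted. Retnlg and Chil1 were highest in neutrophils, which were few in Sham. Between IMQ+SHP099 and IMQ none of these passed the test, and the 1 member that did rested on UMIs of single cells.

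**Figure D2:**
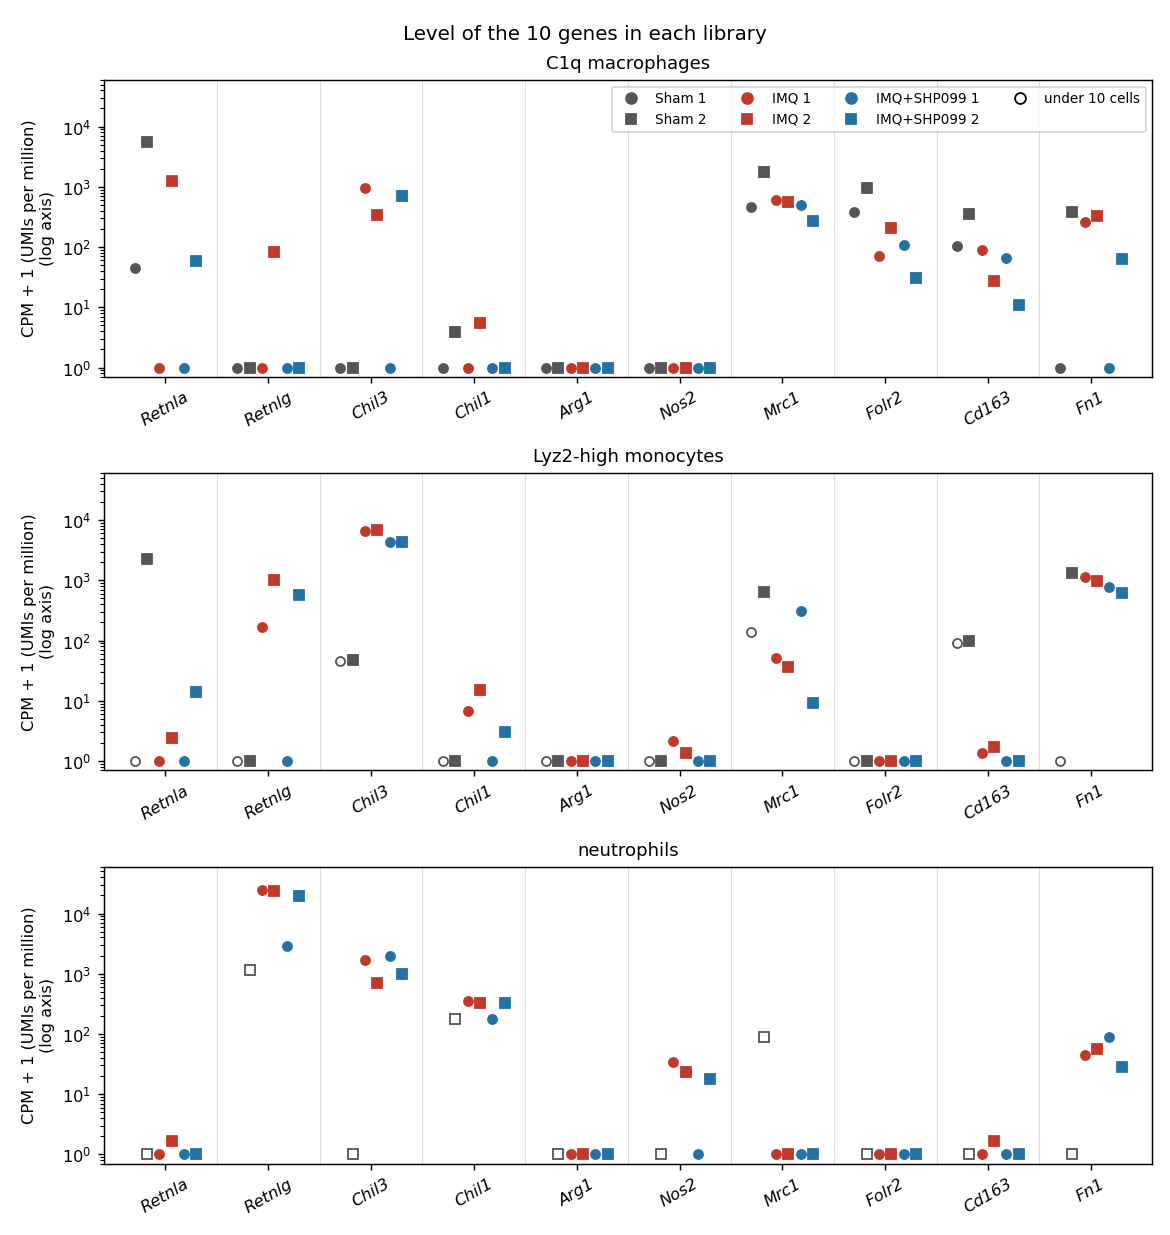
UMIs of each gene in every 1000000 UMIs of the class (CPM) in each library, on a log axis with 1 added, for C1q macrophages, Lyz2-high monocytes and neutrophils. Open symbols are sums over under 10 cells. Chil3 in monocytes sits at 45.3 and 46.4 in Sham and at 4241 to 6806 in the 4 treated libraries, and Folr2 is at 0 in monocytes and neutrophils.

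Retnla encodes resistin-like molecule alpha, a secreted product of alternatively activated mouse macrophages. Its level in C1q macrophages was 44.5 and 5549 CPM in the 2 libraries of Sham, 0 and 1251 in those of IMQ, and 0 and 58.4 in those of IMQ+SHP099. The spread within Sham was therefore as wide as any difference between groups, and the groups overlapped. In Sham 2 the 7714 UMIs came from 95 of 315 macrophages, with 18.3% of them in 1 cell. In IMQ 2 the 571 UMIs came from 6 of 64 macrophages, and 1 cell held 554 of them, or 97.0%. The single value of 1251 thus belonged in the main to 1 cell. With every cell thinned to 1000 UMIs, the expected share of macrophages with a Retnla UMI was 0% and 25.4% in the 2 libraries of Sham, 0% and 4.54% in those of IMQ, and 0% and 3.88% in those of IMQ+SHP099, against 0% to 0.274% of T cells. Unthinned, those macrophage shares were 2.27% and 30.2%, 0% and 9.38%, and 0% and 5.00%. The log2 fold change of IMQ against Sham was -2.12 ± 1.84 (SE, n = 2 libraries a group), with an adjusted p of 0.777 by edgeR's quasi-likelihood test. It changed sign to 3.65 without Sham 2, the library in which nearly all Sham Retnla was counted.

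Among monocytes Retnla was found mainly in Sham 2, at 2242 CPM from 32 of 170 cells. The other 5 libraries were at 0, 0, 1.45, 0 and 12.9. Since the Sham monocyte gate held dendritic markers, the level was taken again without any cell that had a UMI of Cd209a, Flt3, Ccr7 or Xcr1. In the 72 Sham 2 cells that remained it was 4131, higher than before. In the comparison of IMQ+SHP099 with IMQ, Retnla was the only member that passed the test in monocytes, at a log2 fold change of 3.94 ± 0.71 (SE) and an adjusted p of 0.000221 by edgeR. Behind it stood 19 UMIs in 1 cell of IMQ+SHP099 2 and 4 UMIs in 1 cell of IMQ 2. DESeq2 gave an adjusted p of 1.0, without IMQ+SHP099 2 the change was -3.52 (adjusted p 0.878 by edgeR), and without Sham 2 the gene was too low to be tested. A fibroblast signal was also seen in Sham, where 37.9% of the 103 Retnla UMIs of Sham 1 were in fibroblasts.

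Retnlg encodes resistin-like gamma, a secreted protein of bone marrow and of neutrophils. Its level in neutrophils was 24548 and 23616 CPM in IMQ, compared with 2936 and 19767 in IMQ+SHP099. The 8 neutrophils of Sham 2 gave 1158, with a 95% counting interval of 617 to 1980. Thinned to 1000 UMIs, 92.8% and 95.9% of IMQ neutrophils and 37.4% and 92.6% of IMQ+SHP099 neutrophils had a UMI of it, while T cells had it in 0% to 1.85%. Median depth was 4230 to 4341 UMIs a cell in IMQ neutrophils, 1817 and 3130 in IMQ+SHP099, and 1259 to 4012 in T cells. The low value belonged to IMQ+SHP099 1, in which 60 of the 66 UMIs were in 1 of 10 cells and neutrophil markers were low as well. IMQ+SHP099 2 lay beside the IMQ libraries. The log2 fold change of IMQ+SHP099 against IMQ was -1.15 ± 0.81 (SE), adjusted p 0.91 by edgeR, and -0.30 without IMQ+SHP099 1. It reached an adjusted p of 0.00522 with a change of -3.81 when only IMQ+SHP099 1 stood for its group.

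Outside neutrophils, Retnlg was found in treated libraries at lower levels. Monocytes had 0 and 0 CPM in the 2 libraries of Sham, 166 and 1027 in those of IMQ, and 0 and 567 in those of IMQ+SHP099. Few cells carried it, since 1 cell held 59.8% of the UMIs in IMQ 1 and 45.6% in IMQ+SHP099 2. T cells of the same libraries, which should lack the gene, had 94.2, 276, 0 and 6.13 CPM, below the monocytes of the same library in IMQ 1, IMQ 2 and IMQ+SHP099 2. Neutrophil markers in the monocyte gate summed to 1729 and 2523 in IMQ, 406 and 971 in IMQ+SHP099, and 15.1 and 291 in Sham, and their part in the Retnlg level was not tested. Pooled over libraries, the monocyte level in IMQ was 301-fold that of Sham, with Sham set at a floor of 3 counts over the group. That floor covers counting error only and not the spread between libraries or cells. In macrophages only IMQ 2 had any, 37 UMIs of which 91.9% were in 1 cell.

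Chil3 encodes the chitinase-like protein Ym1, which binds sugars without cleaving chitin, and is a common mark of alternative activation in mice (3:106147554-106167564, minus strand). In monocytes its level was 45.3 and 46.4 CPM in the 2 libraries of Sham, 6552 and 6806 in those of IMQ, and 4241 and 4312 in those of IMQ+SHP099. The 3 groups did not overlap, and within each group the 2 libraries lay close together. How many of all genes are separated in this way was not counted. The means were 6679 ± 180 (SD, n = 2) in IMQ and 4277 ± 50.6 in IMQ+SHP099. Thinned to 1000 UMIs, 5.43% and 4.82% of Sham monocytes had a Chil3 UMI, against 68.3% and 75.9% in IMQ, compared with 73.6% and 70.5% in IMQ+SHP099. Positive shares overlapped between the treated groups, with a difference of -0.0246 percentage points between their means, while their summed levels did not overlap. In T cells, whose median depth was 1259 to 4012 UMIs against 4764 to 8239 in monocytes, the thinned share was 0% to 1.55%. Unthinned, 73.1% (95% exact interval 68.2% to 77.7%) and 81.1% of IMQ monocytes were positive, with a median of 53 and 56 UMIs in a positive cell.

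The test between treated groups did not call Chil3 in monocytes. Its log2 fold change of IMQ+SHP099 against IMQ was -0.68 ± 0.26 (SE), with an adjusted p of 0.377 by edgeR. Sham could not enter the planned fit, because Sham 1 had 8 monocytes and the minimum was 10. A fit chosen after seeing the data kept libraries with 5 or more cells. There Chil3 rose in IMQ against Sham by 7.21 ± 0.44 (SE) on the log2 scale, adjusted p 3.03e-09, and in IMQ+SHP099 against Sham by 6.53 ± 0.43, adjusted p 9.89e-09. With either Sham library left out the IMQ rise was 7.32 or 7.46. In counts, Sham monocytes held 3 and 66 Chil3 UMIs, and without cells that carried dendritic markers Sham 1 was at 237 CPM, from 3 UMIs in the 3 cells left, and Sham 2 at 99.0. The Sham gate held more dendritic and fewer monocyte markers than the gate after treatment. A rise within monocytes and the makeup of the gate therefore cannot be told apart.

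Chil3 was also present in macrophages of treated skin. The level was 0 and 0 in the 2 libraries of Sham, 964 and 339.6 in those of IMQ, and 0 and 706 in those of IMQ+SHP099. No UMI was found in the 44 and 315 Sham macrophages, which allows a share of cells with a captured UMI of up to 6.82% and 0.952% at a floor of 3 counts and sets no limit on the share that expresses the gene. In IMQ, 21 of 77 and 10 of 64 macrophages were positive, and in IMQ+SHP099 none of 30 and 7 of 40. The T cells of the 4 treated libraries had 0 to 133 CPM, below the macrophages of IMQ 1, IMQ 2 and IMQ+SHP099 2. Pooled over libraries and with Sham set at a floor of 3 counts over the group, the level in IMQ was 359-fold that of Sham. In IMQ+SHP099 it was 216-fold that of Sham. The floor covers counting error only, so neither ratio is a minimum over libraries, and IMQ+SHP099 1 was at 0 as Sham was. The adjusted p by edgeR was 0.0945 in the first comparison and 0.128 in the second, and it fell below 0.05 in the first when any one of Sham 1, IMQ 2, IMQ+SHP099 1 or IMQ+SHP099 2 was left out (0.0436, 0.015, 0.00357 and 0.00335). Monocyte markers in the macrophage gate summed to 575 and 795 in Sham and 1499.6 to 2089 after treatment, and S100a8 to 0 and 0.719 against 117 to 1170. These markers moved with Chil3, and the part of the gate's makeup was not tested. In the second comparison it fell below 0.05 without IMQ 1 (0.0425), IMQ 2 (0.0393) or IMQ+SHP099 1 (0.00642), and DESeq2 gave 0.526 in the first. Neutrophils had 1666 and 700.2 CPM in IMQ, compared with 2002 and 991 in IMQ+SHP099, where 1 cell held 41 of 45 and 226 of 294 UMIs. Chil4, a near-identical gene 33925 bases away, had no UMI in the gated classes, and how reads shared by the pair were counted is uncertain.

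Chil1 encodes a second chitinase-like protein, also called BRP-39, known from neutrophils and from inflamed epithelium (1:134182176-134190181, plus strand). In neutrophils it was at 349.9 and 323 CPM in IMQ, compared with 178 and 330.3 in IMQ+SHP099, and the 2 UMIs of Sham 2 gave 178. Those levels overlapped between groups. Thinned to 1000 UMIs, 27.2% and 26.8% of IMQ neutrophils and 15.5% and 26.9% of IMQ+SHP099 neutrophils had a UMI, against 0.0291% to 1.33% of T cells. The log2 fold change of IMQ+SHP099 against IMQ was -0.38 ± 0.47 (SE), adjusted p 0.967 by edgeR. Macrophages had at most 4.38 CPM and monocytes at most 14.1. Most Chil1 lay elsewhere. Keratinocytes were at 0.802 and 1.34 CPM in Sham, 32.3 and 99.4 in IMQ, against 45.3 and 42.9 in IMQ+SHP099. All 4 treated libraries were thus above both Sham libraries, and how many of all genes are ordered so was not counted.

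Arg1 and Nos2 compete for arginine and are the textbook pair of alternative and classical activation. Arg1, arginase 1 (10:24915221-24927484, minus strand), had no UMI in any gated macrophage, monocyte or neutrophil of the 6 libraries. Its 31 to 253 UMIs in a library were in keratinocytes (12.9% to 71.3%), unassigned cells and others. For macrophages the zero allows up to 19.1 and 2.16 CPM in Sham, 4.93 and 6.57 in IMQ, against 21.4 and 14.6 in IMQ+SHP099, a limit on counting error only. Nos2, inducible nitric oxide synthase (11:78920787-78960254, plus strand), was also at 0 in all gated macrophages, and monocytes had 4 UMIs in all, each in a cell of IMQ. Neutrophils were its place among the gated classes, at 32.9 and 22.7 CPM in IMQ, compared with 0 and 16.9 in IMQ+SHP099. These rested on 22, 34, 0 and 5 UMIs in 13, 25, 0 and 4 cells. The difference of IMQ+SHP099 from IMQ in neutrophils did not pass, with a log2 fold change of -0.86 ± 0.75 (SE) and an adjusted p of 0.933 by edgeR.

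Mrc1, Folr2 and Cd163 encode surface receptors for uptake. Mrc1 is the mannose receptor CD206, which takes up glycoproteins with terminal mannose (2:14229392-14332057, plus strand). Folr2 is folate receptor beta (7:101839988-101857194, minus strand), and Cd163 clears haemoglobin bound to haptoglobin (6:124304656-124330527, plus strand). In C1q macrophages Folr2 was at 382 and 953 CPM in the 2 libraries of Sham, 70.6 and 204 in those of IMQ, and 106.9 and 29.2 in those of IMQ+SHP099. Both Sham libraries stood above all 4 treated ones, and the 2 treated groups overlapped. The share of all genes with that order was not counted. Cd163 was at 102 and 348 in the 2 libraries of Sham, 87.1 and 26.3 in those of IMQ, and 64.2 and 9.74 in those of IMQ+SHP099. Its order was the same, but IMQ 1 lay close to Sham 1. Mrc1 was at 464 and 1768, 613 and 567, and 506 and 273. Sham 1 fell among the treated libraries, so the groups overlapped.

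The share of positive macrophages gave the same picture. Thinned to 1000 UMIs, which kept 41, 304, 74, 59, 29 and 38 macrophages, Folr2 was found in 28.7% and 42.7% of Sham cells, 4.73% and 13.3% in IMQ, against 9.29% and 2.99% in IMQ+SHP099. Unthinned shares of Folr2 were 43.2% and 59.4%, 19.5% and 34.4%, and 20% and 12.5%. Cd163 was found in 10.3% and 24.6%, 5.70% and 2.18%, and 7.96% and 1.70% after thinning. For Mrc1 the thinned shares were 36.9% and 75.3%, 33.6% and 32.7%, and 39.0% and 22.0%. T cells, with a median of 1259 to 4012 UMIs against 3296 to 6906 in macrophages, had Folr2 in 0% to 0.0356%, Cd163 in 0% to 0.199% and Mrc1 in 0% to 0.398%. For Folr2 the mean thinned share was 35.7% ± 9.96 (SD, n = 2) in Sham and 9.01% ± 6.05 in IMQ. An exact two-sided permutation test over libraries gave p = 0.333, the smallest that 2 against 2 can give. Dendritic markers in the macrophage gate summed to 204 and 242 CPM in Sham and 1.64 to 28.5 after treatment. Without cells that carried such markers, Folr2 was at 364 and 814 in Sham and 29.2 to 224 in the treated libraries. Cd163 was then at 89.2 and 276 against 9.74 to 69.5. Monocyte markers in the gate were at 575 and 795 CPM in Sham against 1499.6 to 2089 after treatment, higher where Folr2 and Cd163 were lower. Their part was not tested, and a change within macrophages and the makeup of the gate cannot be told apart.

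**Figure D3:**
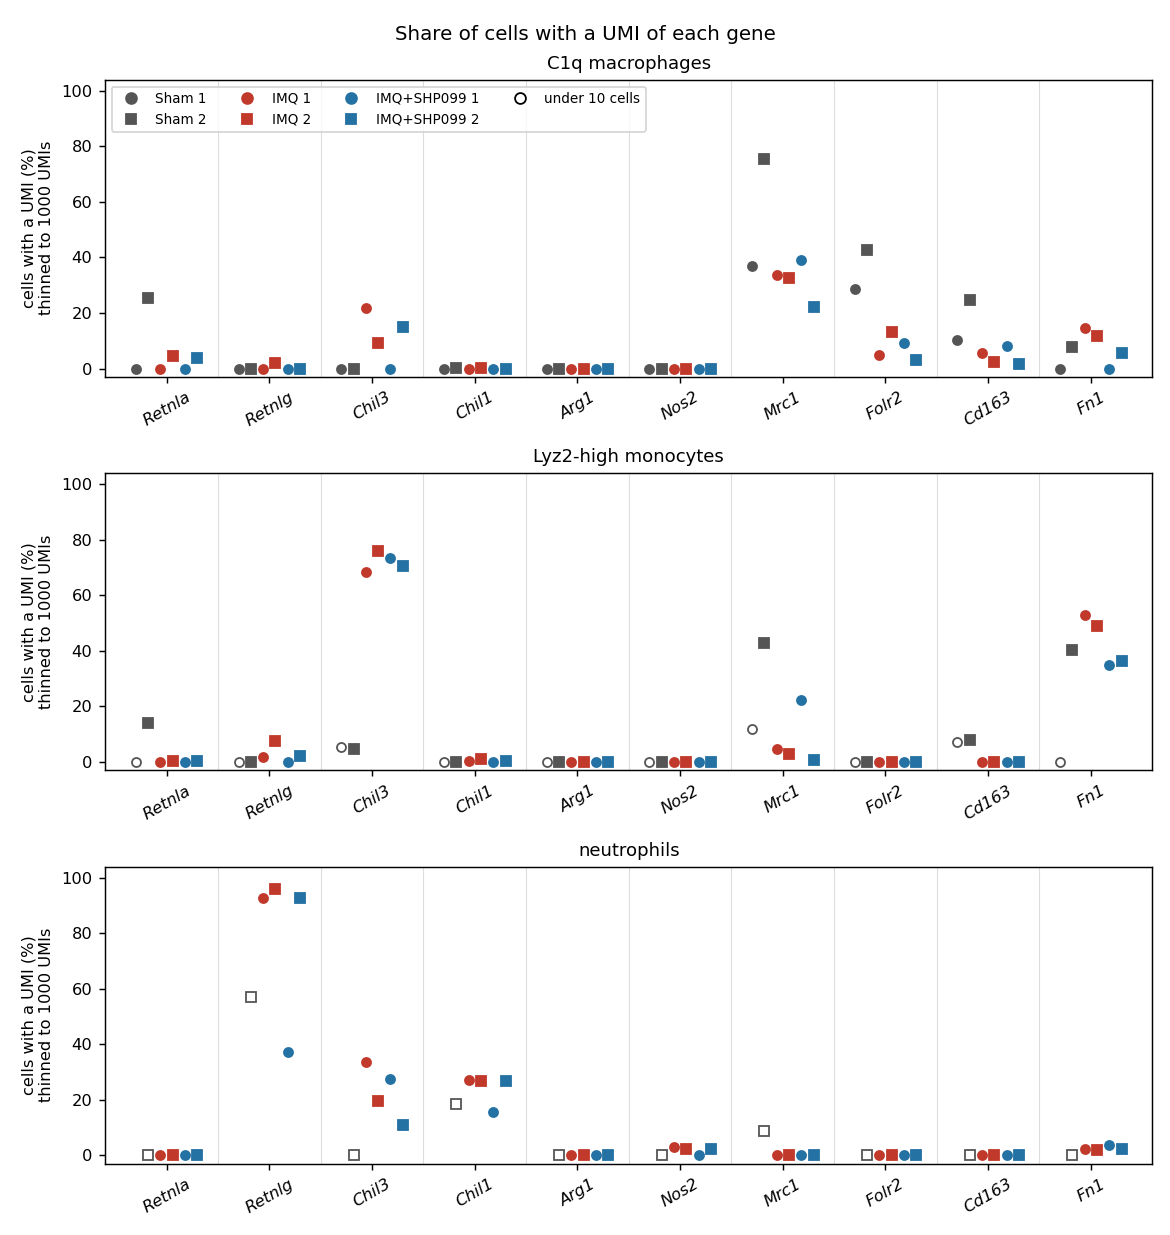
Percent of cells with a UMI of each gene after thinning every cell to 1000 UMIs, per library, for the 3 gated classes. Open symbols are classes of under 10 cells. Folr2 in macrophages is at 28.7% and 42.7% in Sham and at 2.99% to 13.3% in the treated libraries, and Chil3 in treated monocytes is at 68.3% to 75.9%.

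Fitted over all genes, the macrophage test called 21 of 4836 genes (0.434%) between IMQ and Sham and none of the 6 members that had counts enough to be tested. Retnlg, Chil1, Arg1 and Nos2 were too low there. At an unadjusted p under 0.05 there were 3 of the 6 by edgeR and 3 by DESeq2, beside 463 and 232 of all 4836 genes, and DESeq2 called 1 of the 6 and, over all genes, 18 higher and 26 lower. The log2 fold change was -2.32 ± 0.60 (SE) for Folr2, -2.01 ± 0.65 for Cd163 and -0.90 ± 0.52 for Mrc1, with adjusted p of 0.158, 0.290 and 0.638 by edgeR. Folr2 passed with DESeq2 (adjusted p 0.0271), and without Sham 1 Folr2 (0.0253), Cd163 (0.0496) and Chil3 passed with edgeR. Without Sham 2 the change of Mrc1 was 0.22. Between IMQ+SHP099 and Sham 15 of 4836 genes (0.31%) were called, again with 0 of 6 members, of which 5 were at an unadjusted p under 0.05 by edgeR and 4 by DESeq2, beside 577 and 310 of all genes. DESeq2 called 1 of the 6 and, over all genes, 30 higher and 17 lower. The changes were -3.30 ± 0.69 for Folr2, -2.74 ± 0.81 for Cd163 and -1.44 ± 0.54 for Mrc1, with adjusted p of 0.0843, 0.213 and 0.345. Folr2 passed with DESeq2 (0.000523) and, by edgeR, without Sham 1 (0.0107), IMQ 1 (0.037) or IMQ 2 (0.0364). Without Sham 1, Mrc1 (0.0203), Cd163 (0.0438) and Fn1 (0.0358) passed as well. Retnla had a change of -6.24 ± 2.41 with an adjusted p of 0.353. Between IMQ+SHP099 and IMQ no gene of 4836 (0%) was called by edgeR or by DESeq2, with 150 and 49 genes, and 1 and 0 members, at an unadjusted p under 0.05. There the changes were -0.99 ± 0.69 for Folr2, -0.73 ± 0.88 for Cd163, -0.54 ± 0.54 for Mrc1, -4.12 ± 2.30 for Retnla and -2.94 ± 1.24 for Fn1, each with an adjusted p of 1.0.

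**Figure D4:**
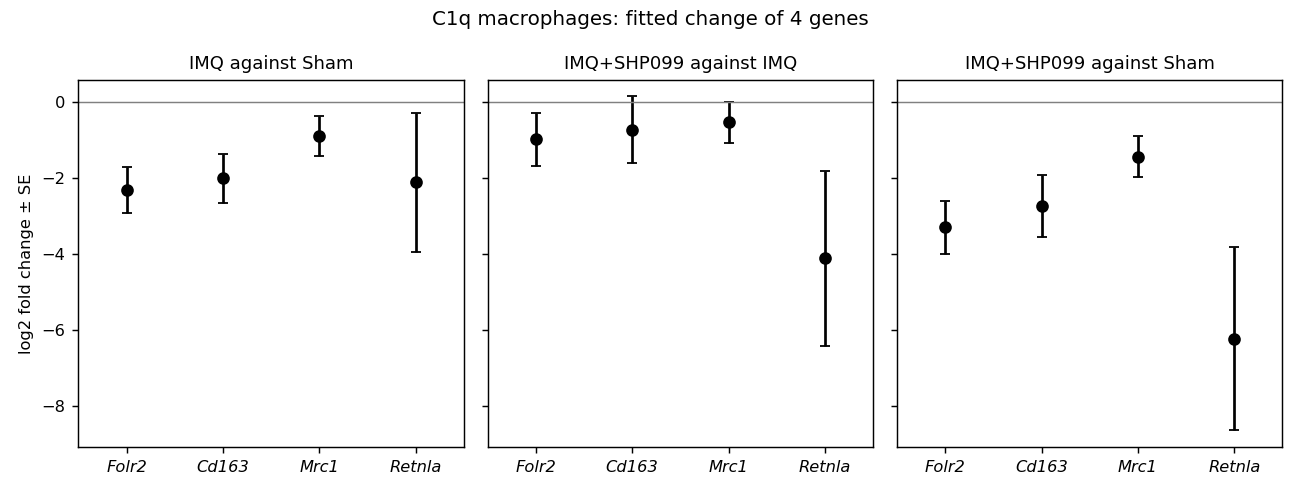
Points are fitted log2 fold changes and bars are standard errors computed from edgeR's F statistics in C1q macrophages, for Folr2, Cd163, Mrc1 and Retnla in the 3 comparisons of groups. The Folr2 change was -2.32 in IMQ and -3.30 in IMQ+SHP099 against Sham, and the bars of Retnla are the widest of the 4 genes.

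In monocytes 2 of the 3 receptors were found in Sham. Cd163 was at 90.7 and 97.7 CPM there, 0.377 and 0.724 in IMQ, against 0 and 0 in IMQ+SHP099. Mrc1 was at 136 and 630.2 in the 2 libraries of Sham, 51.0 and 34.7 in those of IMQ, and 305 and 8.14 in those of IMQ+SHP099. Folr2 was at 0 in the monocytes of all 6 libraries. In the added fit with 5 or more cells, 791 of 8282 genes (9.55%) were called between IMQ and Sham, among them 5 of the 6 members tested. Chil3 and Retnlg rose, and Cd163, Retnla and Mrc1 fell, with adjusted p of 0.000421 for Retnlg, 6.44e-08 for Cd163, 2.06e-05 for Retnla and 0.00936 for Mrc1 by edgeR. DESeq2 called Chil3, Cd163 and Retnlg but not Mrc1 (0.774) or Retnla (0.397). Without Sham 2 the call of Mrc1 was lost (-1.40, adjusted p 0.615), the change of Retnla was 3.20 (adjusted p 0.903) and Cd163 was too low to be tested. Between IMQ+SHP099 and Sham 648 of 8282 genes (7.82%) were called, with Chil3 and Retnlg higher and Cd163 and Retnla lower among the 6 members. Retnlg lost that call without Sham 2 (adjusted p 0.0826), where Retnla was at 7.07 (adjusted p 0.671), and Mrc1 gained one without Sham 1 (-3.73, adjusted p 4.2e-06). Without IMQ+SHP099 2 only Chil3 was called (adjusted p 6.65e-07), and DESeq2 called Chil3, Retnlg and Cd163 but not Retnla (0.944). These comparisons set the 8 monocytes of Sham 1 and the 170 of Sham 2 against cells with lower sums of dendritic markers. Without cells that carried dendritic markers, the 3 monocytes left in Sham 1 were at 0 for Cd163 and 78.9 for Mrc1, and Sham 2 was at 29.7 and 499.

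Between the treated groups 105 of 9100 genes (1.15%) were called in monocytes, and 1 of 7 members, the Retnla of single cells given above. The change of Mrc1 was -0.01 ± 0.53 (SE, adjusted p 1.0 by edgeR), with its libraries far apart. It was called lower without IMQ+SHP099 1 (-2.32, adjusted p 0.00333) and higher without IMQ+SHP099 2 (2.63, adjusted p 0.00201), so 1 library decides its direction. At an unadjusted p under 0.05 there were 4 of the 7 members by edgeR and 1 by DESeq2, which called none, beside 647 and 113 of all 9100 genes. In neutrophils 5 of 3459 genes (0.145%) were called and 0 of 5 members, with none at an unadjusted p under 0.05 by edgeR or DESeq2.

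The IMQ difference in the monocyte gate was set against that in the macrophage gate as an interaction, with libraries as blocks. It called 359 of 8324 genes (4.31%), among them 3 members. Relative to macrophages, the difference of IMQ from Sham in the monocyte gate was -2.30 on the log2 scale for Mrc1 (adjusted p 0.00209), -4.53 for Cd163 (3.04e-06) and -8.22 for Retnla (4.23e-16), all by edgeR. The Sham monocytes of this test were those of Sham 2 alone, whose gate held more dendritic (827 CPM) than monocyte markers (682 CPM), so an imiquimod effect that depends on cell type and the makeup of the gate cannot be told apart. The Retnla value was 1.10 without IMQ 2, where 1 macrophage held nearly all of it. Cd163 lost the call without IMQ 1 (adjusted p 0.06). With libraries of 5 or more cells, 157 of 7139 genes (2.2%) were called, Mrc1 was no longer among them (0.145), and Cd163 and Retnla were.

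Fn1 encodes fibronectin, a matrix protein that monocytes and macrophages also make during repair (1:71585520-71653200, minus strand). In monocytes it was at 0 and 1316 CPM in the 2 libraries of Sham, 1116 and 978 in those of IMQ, and 762 and 606 in those of IMQ+SHP099. The 2 Sham libraries lay on either side of all 4 treated ones. The log2 fold change of IMQ against Sham in the added fit was 0.57 ± 0.71 (SE, adjusted p 0.740 by edgeR) with the 0 of Sham 1 included, and -0.18 ± 0.32 (adjusted p 0.785) without Sham 1. It passed without Sham 2 (adjusted p 7.41e-08), where the 8 cells of Sham 1 stood for Sham. The thinned share was 40.3% in Sham 2, 52.8% and 49.0% in IMQ, against 34.8% and 36.4% in IMQ+SHP099. The libraries with SHP099 were both below those of IMQ in level and share, an order whose frequency over all genes was not counted. The log2 fold change was -0.68 ± 0.27 (SE), with an adjusted p of 0.421 by edgeR. Macrophages had 0 and 385 in the 2 libraries of Sham, 258 and 331 in those of IMQ, and 0 and 63.3 in those of IMQ+SHP099, and 1 cell held 108 of the 151 UMIs of IMQ 2. Fibroblasts, the main holders, were at 889 and 1468 in the 2 libraries of Sham, 280.4 and 318 in those of IMQ, and 252 and 378 in those of IMQ+SHP099. T cells had 8.39 to 43.6 CPM in 5 libraries and 416 in IMQ 2, which is above the macrophages of that library.

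Other genes of polarization were read from 3 lists. Clec7a was not found by its symbol, and the rest were found. In macrophages between IMQ and Sham, the alternative list had 9 genes tested, of which none rose and 1 fell, with a median log2 fold change of -1.66 beside -0.02 over all 4836 genes. The gene was Mgl2, a C-type lectin of alternatively activated macrophages and of dermal dendritic cells, with a mean of 10.4 CPM in IMQ against 813 in Sham (change -6.39 ± 0.59 SE, adjusted p 0.00252 by edgeR). The classical list had 15 tested, 1 higher and 2 lower, with a median of 0.04. Saa3, an acute-phase protein, rose from a mean of 3.60 to 1240.2 CPM (adjusted p 0.00315), whereas Cxcl9, an interferon-gamma-induced chemokine, fell from 88.9 to 0 (0.026) and the chemokine Ccl5 from 139.9 to 19.4 (0.019). The resident list had 12 tested, none higher and 1 lower, with a median of -1.54. Ccl8, a chemokine of resident skin macrophages, fell from 9595 to 86.8 (adjusted p 0.0227). The classical calls thus went in both directions. Dendritic markers in this gate were at 204 and 242 CPM in Sham against 1.64 to 28.5 after treatment. Without cells that carried such markers 3 genes were called higher and 4 lower over all genes. Mgl2 (adjusted p 0.00586), Saa3 (0.00688) and Ccl5 (0.0123) were still called by edgeR, whereas Cxcl9 (0.106) and Ccl8 (0.0809) were not. Monocyte markers in this gate were at 795 and 575 CPM in Sham against 1499.6 to 2089 after treatment. Saa3 had a mean of 3074 CPM in IMQ monocytes, and the part of such cells in its rise was not tested.

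No listed gene was called in macrophages or neutrophils between the treated groups. The alternative, classical and resident medians were -0.02, 0.09 and -0.17 in macrophages beside 0.01 over all genes, and 1.10 (4 genes tested), 0.61 (13) and 0.20 (2) in neutrophils beside -0.08. In macrophages against Sham, Mgl2 was lower (-4.75, adjusted p 0.0064) and Saa3 higher (7.89, adjusted p 0.0064), the only listed genes called, with medians of -0.68, -0.45 and -1.86 beside -0.04 over all genes. In monocytes between the treated groups, 3 of 21 classical genes were higher and none lower by edgeR, with a median of 0.31 beside -0.04 over all 9100 genes, of which 1.15% were called. DESeq2 called 1 gene higher and 10 lower in the whole comparison, and none of Cd80, Il6 and Trem2 (adjusted p 1.0 each). The 3 higher by edgeR include Cd80, a costimulatory ligand, at a mean of 60.7 in IMQ+SHP099 against 14.6 in IMQ (change 1.43 ± 0.36 SE, adjusted p 0.026). Il6, also among them, was at 76.8 against 33.3 (change 1.25 ± 0.30 SE, adjusted p 0.013). These means weigh the 17 monocytes of IMQ+SHP099 1 as much as the 245 of IMQ+SHP099 2. Trem2, a lipid receptor of the resident list, fell from 115.8 to 49.8 (change -1.19 ± 0.28 SE, adjusted p 0.0129), the 1 call among 10, whose median was -0.36. None of the 14 alternative genes passed there, with a median of 0.09. In the added fit against Sham, the alternative list had 7 of 11 genes lower in IMQ and 6 of 11 in IMQ+SHP099, and none higher, with medians of -2.05 and -1.85 beside -0.07 and -0.14 over all genes. Of all 8282 genes 434 and 363 were lower there, and without Sham 2 82 and 83 of 8930. Dendritic markers in the gate, at 741 and 827 CPM in Sham against 18.1 to 32.8, moved with these counts, and their part was not tested. The classical list had 4 higher and 3 lower of 17 in IMQ and 5 and 1 in IMQ+SHP099, and the resident list 1 higher of 8 in each, Trem2. Mgl2 was at a mean of 1711 CPM in Sham monocytes, 3.83 in IMQ and 0 in IMQ+SHP099, and it is also a gene of dermal dendritic cells.

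The genes most like each member were sought over the 15 class sums with at least 10 cells, by Pearson's r of log2(CPM + 10) among 4911 genes. Sums of 1 library share that library, so these are descriptions. For Folr2 they were Cbr2 (0.981), Igf1 (0.969) and Pf4 (0.964), and for Cd163 Hpgd (0.945), Mtss1 (0.934) and Clec10a (0.919). Mrc1 was followed by Rgl1 (0.976), Dab2 (0.961) and Arl6ip1 (0.960). Chil1 was closest to Mrgpra2b (0.997), Il1f9 (0.990) and Cxcr2 (0.989), of which Cxcr2 was used in the neutrophil gate, and Retnlg to Asprv1 (0.972), Stfa2l1 (0.962) and Pag1 (0.962). Chil3 had Ccdc12 (0.941), Hp (0.880) and Tmem38b (0.877), Retnla had Gfra2 (0.944), Lyz1 (0.881) and Sulf2 (0.830), and Fn1 had H13 (0.864), Itga4 (0.864) and Vps18 (0.845). Arg1 and Nos2 were below the level set for this search.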

How the data were processed

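The authors dissociated mouse skin, made 10x Chromium 3′ libraries and deposited filtered matrices of UMI counts per gene and cell, made with Cell Ranger 3.1.0 on GRCm38 (mm10). The depth was 53913865 to 188283327 UMIs a library. The study tested over cells. Here raw counts were summed per library and class, and levels are given as CPM, UMIs in every 1000000 of the class.

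As in the study, a cell was kept below 100000 UMIs, 6500 genes and a 10% mitochondrial share. Gates used UMIs per 10000: C1q at least 5, Lyz2 at least 20, S100a8 with S100a9 at least 100, keratins under 100 and collagens under 50. Doublets were not removed. Sums were tested with edgeR 4.0.16 (R 4.3.3, TMM, filterByExpr, quasi-likelihood, Benjamini-Hochberg over all genes tested, threshold 0.05), with all libraries of at least 10 cells of a class in 1 fit. Except in the interaction, a comparison needed 2 libraries in each group, so monocytes and neutrophils were not tested against Sham as planned, and a fit with at least 5 cells was added for monocytes after seeing the data. The SE of an edgeR change is its absolute log2 value divided by the square root of the test's F statistic, since the test gives none. DESeq2 1.42.0 was an alternative, as were other gates, limits and scalings. Shares after thinning to 1000 UMIs are the mean chance of a UMI when drawing without replacement (numpy 2.4.6, scipy 1.17.1). Intervals are exact, at 95%, and with the floors of 3 counts they cover counting error only.

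On simulated counts with 200 genes changed 8-fold, the fits of macrophages (IMQ against Sham, 4535 genes), monocytes (8560) and neutrophils (3289, both IMQ+SHP099 against IMQ) recovered 93.5%, 91.5% and 81.5%, with 4.1%, 1.61% and 4.12% of calls false. The simulation took each gene's spread from the trend over all genes. Changes under 8-fold and genes with most UMIs in single cells were not simulated, so these shares do not tell how many such changes would be missed.

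Genes, classes and lists were chosen with earlier results of these data known. Named genes are the 10 members in every class, up to 4 called genes of each list with a mean of at least 20 CPM in 1 group, and the 3 genes most like a member of at least 50 CPM. List genes called in the added monocyte fit are mostly given as counts.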

Additional observations from a re-analysis of the deposited data

Results flagged for a closer look

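The difference of IMQ from Sham was not the same in the monocyte and macrophage gates for 3 genes by the interaction test, at a log2 difference of -2.30 for Mrc1, -4.53 for Cd163 and -8.22 for Retnla, monocytes relative to macrophages. Sham monocytes came from 1 library in that test, whose gate held more dendritic than monocyte markers (827 and 682 CPM), so an effect that depends on cell type and the makeup of the gate cannot be told apart. The Retnla value was 1.10 without IMQ 2, Cd163 lost the call without IMQ 1 (adjusted p 0.06 by edgeR), and Mrc1 lost it with libraries of 5 or more cells (0.145).

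Signals also lay outside the 3 gated classes. Chil1 in keratinocytes was at least 32.3 CPM in each of the 4 treated libraries, against 0.802 and 1.34 in Sham. Arg1, absent from the gated classes, reached 20.5 CPM in the other myeloid cells of IMQ 1, where 63 UMIs came from 5 cells, against 0.417 and 1.57 in Sham.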

How the results depend on the processing

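Counts of members and genes called moved with the settings as follows. With DESeq2, macrophages gave 1 member and 44 genes for IMQ against Sham and 1 and 47 for IMQ+SHP099 against Sham. Monocytes gave 0 and 11 between the treated groups, and in the added fit 3 and 184 for IMQ and 164 genes for IMQ+SHP099 against Sham. Without the filter on low counts, macrophages gave 5 and 248, 2 and 29 (IMQ+SHP099 against IMQ) and 6 and 203, and neutrophils 52 genes. With only the 2 groups compared, 1 member was called in macrophages for IMQ and 7 genes for IMQ+SHP099 against Sham, and 0 members and 61 genes in monocytes. The replicate block gave 1 member and 26 genes in macrophages for IMQ+SHP099 against Sham, 2 members in monocytes and 30 genes in neutrophils. Deviations from group means of same-numbered samples correlated at 0.14, 0.0742 and -0.0246 in macrophages. Between the treated groups they correlated at 0.0577 in monocytes and 0.0757 in neutrophils. Sums over so few cells cannot tell whether same-numbered samples share more than a number. The first libraries of Sham and IMQ+SHP099 both stand apart in keratinocyte share. A stricter gate gave 1 member for IMQ and 26 genes for IMQ+SHP099 in macrophages and 21 genes in monocytes, a looser gate 28 genes in those macrophages and 0 in neutrophils, and exclusion limits at 0.5 of their value 23 and 15. Without dendritic cells macrophages gave 7 and 6 genes against Sham, with a mitochondrial limit of 5% monocytes gave 57, and the interaction gave 157 with 5 or more cells.

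Leaving out 1 library gave 0 (without Sham 2) to 3 members (without Sham 1) and 2 to 150 genes for IMQ against Sham in macrophages, 0 to 4 and 0 to 146 for IMQ+SHP099 against Sham (the same libraries), and 0 to 11 genes between the treated groups (11 without IMQ 2). In monocytes it gave 0 (without Sham 2) to 2 members (without IMQ+SHP099 1) and 36 to 121 genes between the treated groups, 3 (without Sham 2) to 6 and 263 (without IMQ 2) to 1356 (without Sham 1) in the added fit of IMQ, and 1 to 5 and 62 (without IMQ+SHP099 2) to 1205 (without Sham 1) in that of IMQ+SHP099. Neutrophils gave 0 to 1 (without IMQ+SHP099 2) and 0 to 26, and the interaction 152 to 519 genes. Over these omissions the log2 change of Mrc1 in macrophages, IMQ against Sham, was -1.46 to 0.22 and that of Retnla -13.41 to 3.65, and Cd163 between the treated groups was -2.45 to 0.43. Retnla in monocytes was -3.52 to 7.04 between the treated groups, -8.31 to 1.10 as an interaction, and -13.23 to 3.20 and -13.58 to 7.07 in the added fits. Of 550 fold changes under alternatives, 467 kept direction and side of the threshold, 45 lost and 30 gained a call, and 8 changed sign. The cause of these moves was not tested.

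Few cells set the limits. Macrophages numbered 30 to 315 a library, neutrophils of IMQ+SHP099 1 numbered 10, and 2 libraries a group cannot reach an exact p under 0.333. Neutrophils under the stricter gate and with at least 1000 UMIs a cell left too few cells for a fit.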
